A study of Homo sapiens with 18 samples.

Results

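The genes described here were 40 genes of DNA replication and of the G1/S transition, the step at which a cell commits to copying its genome. They were chosen by name from general knowledge of the replication machinery, with earlier results of these data known. Their Ensembl identifiers were found among 61541 genes listed. All 40 were detected well enough to be tested, among 17377 genes in the table of the 24 h experiment and 17775 in the table of the 3 and 12 days experiment. RNA came from A549, a human lung adenocarcinoma line of wild type genotype, kept in high glucose medium with serum. Sodium propionate (SP), the salt of a short-chain fatty acid that gut bacteria produce, was given at 5 mM for 3 h, 24 h, 3 days or 12 days. Untreated controls were collected at 24 h, for SP 3 h and SP 24 h, and at day 3, for SP 3 days and SP 12 days. Each of the 6 groups held 3 libraries. Because SP 3 h and SP 12 days had no control of their own time, the effect of SP and that of time in culture cannot be told apart in them. The study describes its RNA-seq of the 3 h and 24 h samples as biological replicates. The labels do not say whether the 3 libraries of a group came from separate cultures, so where they did not, p-values measure only the spread between libraries, which may be technical.

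Replication starts at origins. CDC6 and CDT1 place the ring-shaped MCM2 to MCM7 helicase on DNA in G1, and CDC45, the GINS complex and MCM10 then switch it on. DNA polymerases alpha, delta and epsilon copy both strands, delta and epsilon on the sliding clamp PCNA, which the RFC complex loads. FEN1 and LIG1 join the lagging strand pieces. Cyclin E with its kinase, and the transcription factor E2F1 that is freed when RB is phosphorylated, drive the entry into S phase and the transcription of most of these genes. Their mRNA levels rise in late G1 and S phase, so in a bulk sample fewer cells in S phase and less mRNA per cell cannot be told apart. By imaging of single cells, the study saw no effect of SP alone on replication rate or on cell cycle phases. That imaging followed a treatment shorter than the longer ones described here. The study also reports that SP was not found to change proliferation of this cell line. Whether the share of cells in S phase differed between the libraries was not tested.

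E2F1 binds short words in promoters, and these letters were searched in those of the members. RefSeq promoters of the GRCh38.p14 build, 250 bases before to 50 after each start, were found for 35 of the 40 genes. The words TTTCCCGC, TTTGGCGC, TTTCGCGC and TTTGCCGC were searched on both strands. They do not overlap the other motifs searched, the CHR word TTTGAA and the CCAAT box, CCAAT. One of the E2F words stood in 19 of the 35 promoters (54.3%) and in 3.33% of 27305 promoters in the same table. CCAAT stood in 57.1% of the members' promoters against 35.7% of all, and TTTGAA, a word known from genes of G2 and mitosis, in 2.86% against 15.4%. The windows shown lie upstream of the annotated gene. The first 5 belong to genes that fell with SP at 3 and 12 days and the last pair to genes that did not pass the test there. They are written 5′ to 3′ on the gene's strand with the matching word in capitals.
TYMS, chr18:657603-657632, plus strand: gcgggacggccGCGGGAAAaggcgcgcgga
CDT1, chr16:88803743-88803772, plus strand: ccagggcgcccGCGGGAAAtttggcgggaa
POLA1, chrX:24693770-24693799, plus strand: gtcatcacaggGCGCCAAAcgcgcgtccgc
MCM3, chr6:52284898-52284927, minus strand: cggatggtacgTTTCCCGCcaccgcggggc
E2F1, chr20:33686387-33686416, minus strand: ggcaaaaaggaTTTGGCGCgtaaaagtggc
PCNA, chr20:5126663-5126692, minus strand: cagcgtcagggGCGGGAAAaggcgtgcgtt
MCM6, chr2:135876577-135876606, minus strand: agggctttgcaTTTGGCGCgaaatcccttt
TYMS, CDT1 and PCNA carry the same word, GCGGGAAA, which is TTTCCCGC read on the other strand. The promoter of CCNE1 held none of the words in this window, which says only that these letters are not in it. A match is a description of letters and not a measured binding site.

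Gene counts summed to 14187401 to 43765330 in the libraries of the 24 h experiment and to 15425281 to 21992046 in those of the 3 and 12 days experiment. Over all genes, log2 fold changes had a median standard error (SE) of 0.20 in the first and 0.13 in the second. For the 40 genes the order was the other way, with 0.145 at 3 h and 24 h and 0.188 and 0.187 at 3 and 12 days. Levels are given as CPM, a gene's reads relative to its library's total after TMM scaling. Values of the 2 experiments were scaled separately and tested only within each. CDKN2A, which A549 cells have lost, had 0 reads in all 18 libraries, and 8 epithelial markers summed to 16780 to 22420 CPM in each. Immune markers summed to at most 1.19 CPM and endothelial markers to at most 2.88. Fibroblast markers moved with SP, from 15.2 to 16.4 CPM in the 3 days controls to 63.1 to 73.6 at SP 3 days and 35.9 to 64.6 at SP 12 days. At 24 h they went from 6.67 to 22.1 CPM in the controls to 62.9 to 90.4 with SP. Of 6 fibroblast markers listed, 3 were measured well enough to be tested at the late times, and 2 of these, COL1A1 and LUM, rose at 3 and at 12 days. COL1A1 made up most of the sum, and COL1A2 was at 0 in every library of that experiment. The part of these markers in the results was not tested.

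Replication genes were mostly lower with SP at 3 and 12 days. With all libraries, CCNE1, which encodes cyclin E1, was the one member that passed as higher at both. Without SP 12 days replicate 3, FAM111B and SLBP passed as higher at both as well. At 3 days 12 of the 40 genes fell and 1 rose, and at 12 days 22 fell and 1 rose (edgeR quasi-likelihood test, Benjamini-Hochberg adjusted p under 0.05 over all genes tested). Of all genes tested, 23.3% fell and 25.2% rose at 3 days, and 23.4% fell and 26.4% rose at 12 days. The share of members that fell was above that background at 12 days and less far above it at 3 days, and the share that rose was below it at both. The count at 3 days depends on 1 library of SP 12 days through the shared estimate of the spread, and without that library 29 fell at 3 days, where 29.0% of all genes fell. The median log2 fold change of the 40 genes was −0.37 at 3 days and −0.50 at 12 days, against −0.02 and 0.00 over all genes. At 3 h and 24 h the median was −0.12 and −0.22, with 1 and 4 genes lower, where 4.11% and 12.0% of all genes fell. With the replicate number as a block 14 were lower at 24 h, where 18.2% of all genes fell. The share of members that fell was thus under the background at 3 h, and at 24 h without the block. At the stricter thresholds that the study used, 0.0001 for the adjusted p together with 2-fold, which 8.44% of all genes met at 3 days and 9.11% at 12 days, CCNE1 was the only member called at either time. With SP 12 days replicate 3 left out, 11.5% of all genes met them at 3 days and 11.0% at 12 days, and TYMS met them at both times (−1.29 and −1.01) and FAM111B at 12 days (1.11), beside CCNE1.

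**Figure D1:**
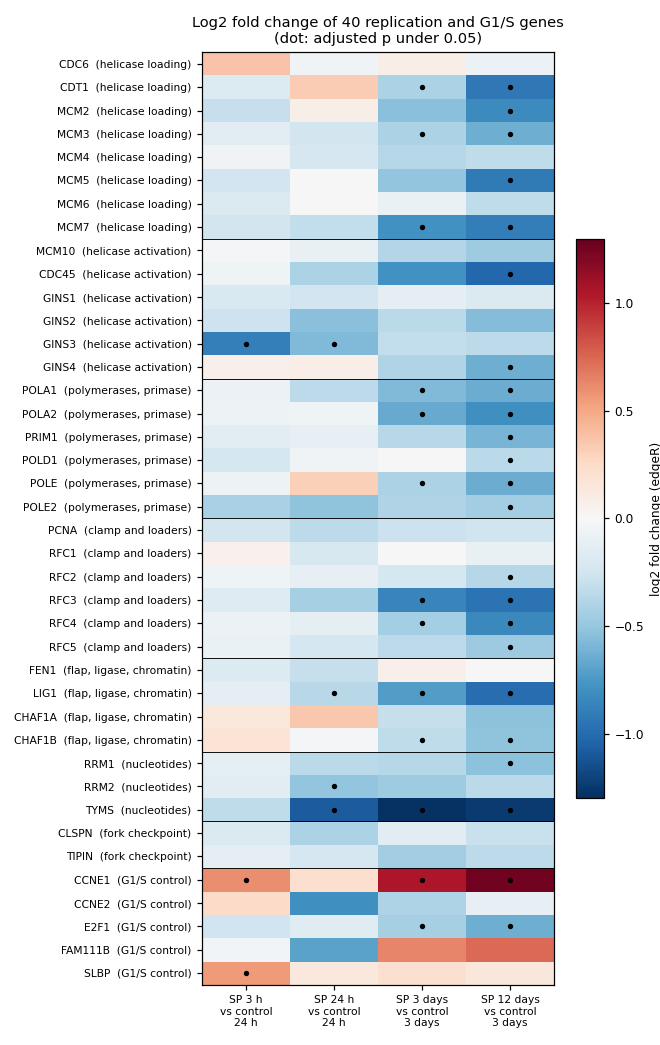
Log2 fold changes of the 40 genes (rows, grouped by role) in the 4 comparisons with control (columns), blue for lower and red for higher with SP, and a dot where the adjusted p was under 0.05. The dots number 3, 4, 13 and 23 from left to right, and the deepest blue is TYMS at 3 days (−1.28) while the deepest red is CCNE1 at 12 days (1.25).

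SP 12 days replicate 3 stood apart from the other libraries of its group in these genes. It had the lowest log2 CPM of the 3 libraries in 40 of 40 members, with a median difference of −0.74 from the mean of replicates 1 and 2. Over all genes tested it was the lowest in 41.4%, with a median difference of 0.01, and among 15 genes of G2 and mitosis it was the lowest in 15, with a median of −1.15. The members summed to 1304 CPM in it, against 2098 and 2395 in replicates 1 and 2. The drop was deepest for RRM2 (−1.95 on the log2 scale), FAM111B (−1.58), CLSPN (−1.55) and MCM10 (−1.46). It was shallowest for POLD1 (−0.22), CCNE1 (−0.24) and RFC1 (−0.27). MKI67, a general marker of cycling cells, read 78.6 CPM in this library against 187 and 243. Its mitochondrial share of counts was 7.04%, against 5.82% to 6.49% in the other libraries of that experiment, and its fibroblast markers summed to 64.6 CPM against 40.7 and 35.9. Their part in the low values was not tested. The median SD of the members in SP 12 days was 0.454 on the log2 scale, against 0.074 in SP 3 days and 0.096 in the control, while that of all genes was 0.174.

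Results at 12 days are therefore given with all libraries and, for the members described, also without this one. Without it, 23 members fell and 5 rose at 12 days, where 27.6% of all genes fell and 27.3% rose, and the median was −0.29. Also without it, 29 members fell and 3 rose at 3 days, where 29.0% fell and 28.6% rose among all genes, and the median was −0.38. The fold changes at 3 days do not use this library. Their count moved from 12 to 29 because all 9 libraries share 1 estimate of the spread, and a fit of only SP 3 days and its control also gave 29 lower and 3 higher.

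CCNE1 (cyclin E1, ENSG00000105173, chromosome 19, 29811991 to 29824312) was the member with the largest rise. The 3 days controls held 22.3, 18.1 and 23.0 CPM, the SP 3 days libraries 44.5, 42.8 and 44.03, and the SP 12 days libraries 52.7, 53.9 and 45.0. All 6 SP libraries lay above all 3 controls. The rise was 2.07-fold at 3 days (log2 1.05, SE 0.11, edgeR adjusted p = 7.61e-07) and 2.39-fold at 12 days (log2 1.25, SE 0.10, adjusted p = 8.91e-08). Without SP 12 days R3 it was 1.31 at 12 days. In the 24 h experiment the controls held 44.1, 33.4 and 41.5 CPM, the SP 3 h libraries 64.1, 58.9 and 57.5, and the SP 24 h libraries 49.8, 38.8 and 49.95. The SP 3 h libraries were all above the controls and the SP 24 h libraries overlapped them. CCNE1 differed by 0.60 on the log2 scale at 3 h (adjusted p = 0.0244) and 0.22 at 24 h (adjusted p = 0.271). The call at 3 h was lost without control R2 (0.49, adjusted p = 0.0806), SP 3 h R1 (0.55, adjusted p = 0.0879) or SP 3 h R2 (0.61, adjusted p = 0.0754).

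CCNE2, the second cyclin E gene, was weakly expressed and did not follow CCNE1. It held 2.87, 3.20 and 2.96 CPM in the 3 days controls, 1.95, 2.93 and 1.91 at SP 3 days, and 2.91, 3.44 and 2.04 at SP 12 days. These groups overlap. Its log2 fold changes were −0.41 (adjusted p = 0.173) and −0.11 (adjusted p = 0.717), and 0.08 at 12 days without SP 12 days R3. In the 24 h experiment it read 12.1, 8.35 and 3.61 CPM in the controls, 9.95, 7.23 and 11.2 at SP 3 h, and 7.32, 2.82 and 3.75 at SP 24 h. The spread within each group was as wide as the differences, and neither log2 fold change passed (0.24 and −0.80, adjusted p = 0.804 and 0.224). Its exons share 1633 bp with INTS8 and an unnamed gene on the opposite strand, and the counting is not stated to use strand.

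E2F1, a transcription factor gene and itself a member, fell with SP at 3 and 12 days. Controls held 52.9, 51.1 and 55.2 CPM, SP 3 days libraries 39.1, 40.04 and 39.2, and SP 12 days libraries 36.9, 41.0 and 25.2. Every SP library was lower than every control. E2F1 changed by −0.43 on the log2 scale at 3 days (SE 0.13, edgeR adjusted p = 0.0149) and −0.63 at 12 days (SE 0.13, adjusted p = 0.00112), or −0.46 at 12 days without SP 12 days R3. The call at 3 days was lost without control R3 (−0.40, adjusted p = 0.0579). At the early times E2F1 overlapped its controls, which held 82.1, 74.5 and 91.5 CPM, with 84.3, 67.9 and 54.7 at SP 3 h and 84.8, 62.0 and 75.5 at SP 24 h. Neither difference passed (−0.26 and −0.16, adjusted p = 0.40 and 0.51).

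SLBP, which binds the stem loop of histone mRNAs, rose at 3 h. The controls held 102, 77.8 and 88.6 CPM, SP 3 h libraries 127, 126 and 139, and SP 24 h libraries 104, 85.3 and 106. SP 3 h stood above the controls with no overlap, and SP 24 h overlapped them. The log2 fold change at 3 h was 0.55 (SE 0.13, edgeR adjusted p = 0.0228). This call was lost without control R2 (0.46, adjusted p = 0.0808) or without SP 3 h R1, R2 or R3 (0.57, 0.57 and 0.50, adjusted p = 0.0603, 0.0663 and 0.0648). At 3 and 12 days SLBP did not pass with all libraries (0.21 and 0.14, edgeR adjusted p = 0.18 and 0.359). Without SP 12 days R3 it was higher at both (0.20 and 0.28, adjusted p = 0.0259 and 0.00678). FAM111B, a protease gene transcribed in S phase, held 6.79, 9.59 and 6.62 CPM in the 3 days controls, 12.7, 10.2 and 12.6 at SP 3 days, and 15.1, 18.1 and 5.45 at SP 12 days. SP 12 days R3 lay under every control while the other 2 libraries of its group lay above them. With all libraries FAM111B did not pass at 12 days (log2 0.74, SE 0.40, adjusted p = 0.16), and without R3 it did (1.11, SE 0.14, adjusted p = 5.70e-07). At 3 days FAM111B likewise passed as higher only without R3 in the shared estimate of the spread (0.63, adjusted p = 3.83e-04, against 0.231 with all libraries).

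TYMS (thymidylate synthase, which makes the thymidine nucleotide for DNA; ENSG00000176890, chromosome 18, 657653 to 673578) fell most. The 3 days controls held 67.4, 64.3 and 75.9 CPM, SP 3 days libraries 29.5, 29.7 and 26.0, and SP 12 days libraries 33.4, 36.1 and 18.4. No SP library reached a control. TYMS changed by −1.28 on the log2 scale at 3 days (SE 0.21, edgeR adjusted p = 6.12e-04) and −1.25 at 12 days (SE 0.21, adjusted p = 6.90e-04), or −1.01 without SP 12 days R3. The same gene was already lower at 24 h, with 131, 108 and 129 CPM in the controls, 97.9, 90.8 and 104 at SP 3 h, and 68.7, 46.2 and 59.1 at SP 24 h. The order control, SP 3 h, SP 24 h held without overlap. At 3 h the difference did not pass (−0.33, adjusted p = 0.208), and at 24 h it did (−1.08, SE 0.15, adjusted p = 9.35e-04). TYMS shares 1160 bp of exon with TYMSOS and ENOSF1 on the opposite strand, so reads of these genes may not be told apart from its own.

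The other nucleotide genes moved less. RRM2, the regulated subunit of ribonucleotide reductase, held 325, 246 and 297 CPM in the 24 h controls, 292, 241 and 253 at SP 3 h, and 231, 178 and 201 at SP 24 h. SP 24 h lay below the controls. Its log2 fold change at 24 h was −0.51 (SE 0.14, edgeR adjusted p = 0.0243), a call lost without control R1 (−0.45, adjusted p = 0.0585), SP 24 h R2 (−0.42, adjusted p = 0.10) or SP 24 h R3 (−0.50, adjusted p = 0.0786). At the late times RRM2 held 69.3, 64.5 and 68.7 CPM in controls, 49.2, 51.8 and 46.3 at SP 3 days, and 60.7, 80.3 and 18.0 at SP 12 days. At SP 12 days 1 library lay above the controls and replicate 3 far below, with no passed difference (−0.35, adjusted p = 0.563). Without replicate 3 RRM2 was 0.05 at 12 days and passed as lower at 3 days (−0.46, adjusted p = 5.01e-05, against 0.455 with all libraries). RRM1, the large subunit of the same enzyme, fell at 12 days (−0.54, SE 0.16, adjusted p = 0.0157, and −0.35 without R3), a call lost without control R3 (−0.54, adjusted p = 0.0535). At 24 h RRM1 fell with the replicate block (−0.36, adjusted p = 0.0282) and not without it (−0.35, adjusted p = 0.0942).

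Among the helicase genes, MCM7, MCM3 and CDT1 fell at both late times, and MCM2 and MCM5 at 12 days and, without SP 12 days R3, also at 3 days. MCM7 held 329.6, 287 and 352 CPM in controls, 178, 184 and 200.2 at SP 3 days, and 185, 218 and 115 at SP 12 days. The SP and control libraries were apart. Its log2 fold changes were −0.78 (SE 0.20, edgeR adjusted p = 0.00838) and −0.90 (SE 0.20, adjusted p = 0.00379), and −0.70 at 12 days without R3. At 24 h MCM7 fell with the replicate block (−0.34, adjusted p = 0.0269) and not without it (−0.32, adjusted p = 0.0976). MCM7 exons share 421 bp with MIR93 and with AP4M1, the second on the opposite strand. MCM2 held 82.0, 78.6 and 103 CPM in controls, 57.7, 60.8 and 62.5 at SP 3 days, and 56.6, 64.3 and 28.5 at SP 12 days. All SP libraries were below all controls. At 3 days the difference was −0.54 (SE 0.26, adjusted p = 0.125), and it passed once SP 12 days R3 was left out of the shared estimate of the spread (−0.55, SE 0.08, adjusted p = 5.32e-06). At 12 days it was −0.82 (SE 0.26, adjusted p = 0.0314). It was −0.55 at 12 days without R3 (adjusted p = 2.54e-05), and the call was lost without control R1 (−0.87, adjusted p = 0.0605) or control R3 (−0.69, adjusted p = 0.102). At the early times MCM2 did not pass, with 158, 136 and 167 CPM in controls, 133, 115 and 126 at SP 3 h, and 181, 138 and 168 at SP 24 h.

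CDT1, which loads the helicase with CDC6 and is destroyed once S phase begins, held 46.5, 46.4 and 51.8 CPM in controls, 37.9, 36.0 and 34.7 at SP 3 days, and 26.6, 30.6 and 18.9 at SP 12 days. The 3 groups did not overlap. The log2 fold change was −0.42 at 3 days (edgeR adjusted p = 0.0177) and −0.93 at 12 days (adjusted p = 4.32e-05), or −0.77 without R3. The 3 days call was lost without control R3 (−0.36, adjusted p = 0.0752) or SP 3 days R3 (−0.39, adjusted p = 0.0625). MCM3 fell at 3 days by −0.41 (adjusted p = 0.0273), a call lost without control R1 or R3 or SP 3 days R1 or R2 (−0.44 to −0.34, adjusted p from 0.0523 to 0.114), and at 12 days by −0.64 (adjusted p = 0.00229), or −0.48 without SP 12 days R3. MCM5 was −0.51 at 3 days (adjusted p = 0.101, and 3.55e-05 without SP 12 days R3) and fell at 12 days by −0.92 (adjusted p = 0.0103), or −0.70 without R3.

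CDC6, the partner of CDT1, did not pass in any comparison with all libraries. At 3 h its libraries were all above the controls (185 ± 10.8 CPM against 143 ± 19.4, SD, n = 3), with a log2 fold change of 0.37 (edgeR adjusted p = 0.129). At the late times it averaged 53.2 ± 1.23 CPM (SD, n = 3) in controls, 56.6 ± 2.83 at SP 3 days and 50.6 ± 23.0 at SP 12 days, and without R3 it was higher at 12 days (0.24, adjusted p = 0.0156). MCM4 and MCM6 passed in no comparison with control when all libraries were used, with log2 fold changes of −0.37 and −0.09 at 3 days and −0.33 and −0.33 at 12 days. When SP 12 days R3 was left out, the 12 days values were −0.06 and −0.11, and MCM4 passed as lower at 3 days (−0.37, adjusted p = 6.73e-05).

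Among the helicase activators, GINS3, a subunit of the GINS ring (chromosome 16, 58295080 to 58406147), was the one member that fell at 3 h. Controls held 36.1, 27.8 and 33.8 CPM, SP 3 h libraries 17.6, 15.7 and 19.8, and SP 24 h libraries 25.8, 20.5 and 19.6. Both SP groups lay below the controls. The log2 fold change was −0.88 at 3 h (SE 0.16, edgeR adjusted p = 0.00712) and −0.57 at 24 h (SE 0.16, adjusted p = 0.0231). The 24 h call was lost without control R1 (−0.52, adjusted p = 0.0611), SP 24 h R2 (−0.52, adjusted p = 0.0942) or SP 24 h R3 (−0.50, adjusted p = 0.093). At the late times GINS3 read 21.6, 22.6 and 21.7 CPM in controls, 16.8, 16.9 and 19.2 at SP 3 days, and 21.4, 18.0 and 12.8 at SP 12 days, and it passed at neither with all libraries (−0.32 and −0.35, adjusted p = 0.0831 and 0.0588). Leaving out SP 12 days R3, it passed as lower at 3 days (−0.32, adjusted p = 0.00552) and was −0.18 at 12 days (adjusted p = 0.15). Its exons share 558 bp with an antisense gene. GINS1, GINS2 and GINS4 passed at neither early time without the replicate block, and GINS2 fell at 24 h with it (−0.56, adjusted p = 0.00998). At 12 days GINS1 and GINS2 were −0.18 and −0.57 (adjusted p = 0.566 and 0.089), and without SP 12 days R3 0.08 and −0.29 (adjusted p = 0.435 and 0.017). GINS4 fell at 12 days (−0.64, adjusted p = 0.0257), a call lost without control R1 (−0.66, adjusted p = 0.0564) or R3 (−0.56, adjusted p = 0.0945), and it was −0.40 without SP 12 days R3 (adjusted p = 0.00313).

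CDC45, the subunit that joins the MCM ring to GINS, held 23.9, 22.8 and 28.5 CPM in controls, 13.7, 13.9 and 15.8 at SP 3 days, and 13.0, 17.8 and 6.47 at SP 12 days. The SP libraries were all below the controls. At 3 days the log2 fold change of −0.79 missed the threshold (SE 0.30, edgeR adjusted p = 0.0541), though without SP 12 days R3 or R2 in the shared estimate of the spread it passed (adjusted p = 1.29e-06 and 0.00336). At 12 days it was −1.02 (SE 0.30, adjusted p = 0.0193), or −0.71 without R3, and was lost without control R3 (−0.92, adjusted p = 0.065). In the 24 h experiment CDC45 did not pass without the replicate block (−0.06 and −0.41), and at 24 h it fell with it (−0.44, adjusted p = 0.0217). MCM10, the other activator, passed at no time with all libraries (−0.38 and −0.46 at the late times). When SP 12 days R3 was left out, it passed as lower at 3 days (−0.38, adjusted p = 0.00141) and was −0.12 at 12 days.

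With all libraries, all 6 polymerase and primase genes fell at 12 days, with log2 fold changes from −0.79 to −0.35, and 3 of them at 3 days. Of all genes, 23.4% fell at 12 days and 23.3% at 3 days. The 3 were POLA1 and POLA2, subunits of polymerase alpha that starts each strand (−0.58 and −0.65 at 3 days, −0.64 and −0.79 at 12 days), and POLE, the catalytic subunit of the leading strand enzyme (−0.41 and −0.65). With SP 12 days R3 left out, POLA1, POLA2 and POLE were −0.46, −0.57 and −0.51 at 12 days. In that fit all but POLE2 fell at 12 days, and 5 of the 6, all but POLD1, fell at 3 days. Of all genes, 27.6% and 29.0% fell there. The 3 days call of POLA2 was lost without control R3 (−0.53, edgeR adjusted p = 0.0765), and that of POLE without control R3 or SP 3 days R1 or R2 (−0.37 to −0.35, adjusted p from 0.0779 to 0.108). PRIM1, the primase, fell at 12 days (−0.60, edgeR adjusted p = 0.0067, and −0.40 without SP 12 days R3). POLE2 fell at 12 days with an adjusted p of 0.0495 and libraries that overlapped the control, a call lost without SP 12 days R3 (−0.25, adjusted p = 0.135), control R1 or R2, or any SP 3 days library (−0.47 to −0.40, adjusted p from 0.0549 to 0.146). POLD1, the catalytic subunit of polymerase delta, was near its control mean at 3 days (93.3 ± 4.31 CPM against 93.6 ± 9.34, SD, n = 3) and was lower at 12 days (73.7 ± 8.23 CPM, log2 −0.35, edgeR adjusted p = 0.00708, and −0.29 without R3). None of the 6 passed at 3 h, nor at 24 h without the replicate block. With the block POLE2 (−0.53, adjusted p = 0.0237) and POLA1 (−0.34, adjusted p = 0.0341) fell at 24 h. Exons shared with other genes limit POLA2 (2555 bp) and PRIM1 (633 bp) among these, as they do MCM2 (1113 bp), GINS4 (1276 bp) and LIG1 (425 bp).

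PCNA, the clamp and the most abundant member per exon length in both control groups (683 ± 9.82 TPM, SD, n = 3, at 3 days, where TPM is the share of reads corrected for exon length), passed in no comparison with all libraries and no block. It held 264, 258 and 276 CPM in controls, 217, 228 and 212 at SP 3 days, and 248, 263 and 158 at SP 12 days. The SP 3 days libraries lay under the controls, and replicates 1 and 2 of SP 12 days were within or just under their range. Its log2 fold changes were −0.28 (edgeR adjusted p = 0.139) and −0.25 (adjusted p = 0.178), and −0.07 at 12 days without R3, while at 3 days it passed without that library (−0.29, adjusted p = 2.82e-04). At 24 h PCNA read 515, 403 and 412 CPM in controls, 370.5, 341 and 413 at SP 3 h, and 396, 287 and 364 at SP 24 h (−0.24 and −0.34, adjusted p = 0.36 and 0.111). With the replicate block it fell at 24 h (−0.36, adjusted p = 0.0261). PCNA has 3 annotated pseudogenes, and how reads with several possible origins were counted is not stated.

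Of the clamp loaders, RFC3 fell most. Controls held 49.4, 47.1 and 43.0 CPM, SP 3 days libraries 26.6, 26.6 and 23.4, and SP 12 days libraries 28.1, 29.1 and 14.9. The SP libraries were well under all controls. The log2 fold change was −0.86 at 3 days (SE 0.20, edgeR adjusted p = 0.00555) and −0.96 at 12 days (SE 0.20, adjusted p = 0.00285), or −0.72 without R3. At 24 h RFC3 fell with the replicate block (−0.43, adjusted p = 0.026) and not without it (−0.43, adjusted p = 0.142). RFC4 fell at both times (−0.44 and −0.83), and RFC2 and RFC5 at 12 days (−0.37 and −0.47). The 12 days values without R3 of RFC4, RFC2 and RFC5 were −0.69, −0.23 and −0.29, and RFC2 and RFC5 passed as lower at 3 days as well (−0.23 and −0.34). The 3 days call of RFC4 was lost without control R1 (−0.38, adjusted p = 0.0556) or SP 3 days R3 (−0.39, adjusted p = 0.0527). At 12 days the call of RFC2 was lost without control R1 (−0.35, adjusted p = 0.064) or R3 (−0.34, adjusted p = 0.0695), and that of RFC5 without control R3 (−0.42, adjusted p = 0.0662). RFC1, the large subunit, did not pass, at −0.10 with a 95% interval of −0.32 to 0.12 at 12 days, and −0.03 without R3.

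LIG1, the ligase that seals the lagging strand, fell at 24 h, 3 days and 12 days. At the late times the controls held 103, 94.0 and 116 CPM, the SP 3 days libraries 61.3, 62.0 and 66.0, and the SP 12 days libraries 53.4, 63.8 and 39.9. No SP library overlapped a control. The log2 fold changes were −0.72 (SE 0.14, edgeR adjusted p = 5.83e-04) and −0.99 (SE 0.14, adjusted p = 3.95e-05), and −0.85 at 12 days without R3. At 24 h the controls held 112, 117 and 140.2 CPM, SP 3 h 119, 120.4 and 100.5, and SP 24 h 96.3, 94.8 and 96.9. SP 24 h lay below the controls by −0.36 (SE 0.12, adjusted p = 0.0436), a call lost without any 1 of control R2 or R3, SP 3 h R1 or R2, or any SP 24 h library (−0.40 to −0.26, adjusted p from 0.0545 to 0.128). FEN1, the flap nuclease that works beside LIG1, did not pass at the late times (0.07 at 3 days and 0.00 at 12 days), and at 12 days was higher without R3 (0.21, adjusted p = 0.0244). At 24 h FEN1 fell with the replicate block (−0.31, adjusted p = 0.0409) and not without it (−0.29, adjusted p = 0.119). CHAF1B, of the factor that puts histones on new DNA, fell at both late times (−0.33 and −0.53), with the 3 days call lost without any 1 of the control or SP 3 days libraries (−0.36 to −0.30, adjusted p from 0.0624 to 0.113), and CHAF1B was −0.39 at 12 days without R3. CHAF1A passed at neither with all libraries (−0.30 and −0.54, adjusted p = 0.312 and 0.0799), and without SP 12 days R3 it passed as lower at both (−0.30 and −0.28, adjusted p = 0.00146 and 0.00762). The fork protection genes CLSPN and TIPIN passed in no comparison with all libraries and no block. CLSPN fell at 24 h with the replicate block (−0.42, adjusted p = 0.0303), and it was −0.29 at 12 days, or 0.07 without R3. TIPIN was −0.34 at 12 days, or −0.10 without R3, and without that library it passed as lower at 3 days (−0.46, adjusted p = 3.86e-04).

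**Figure D2:**
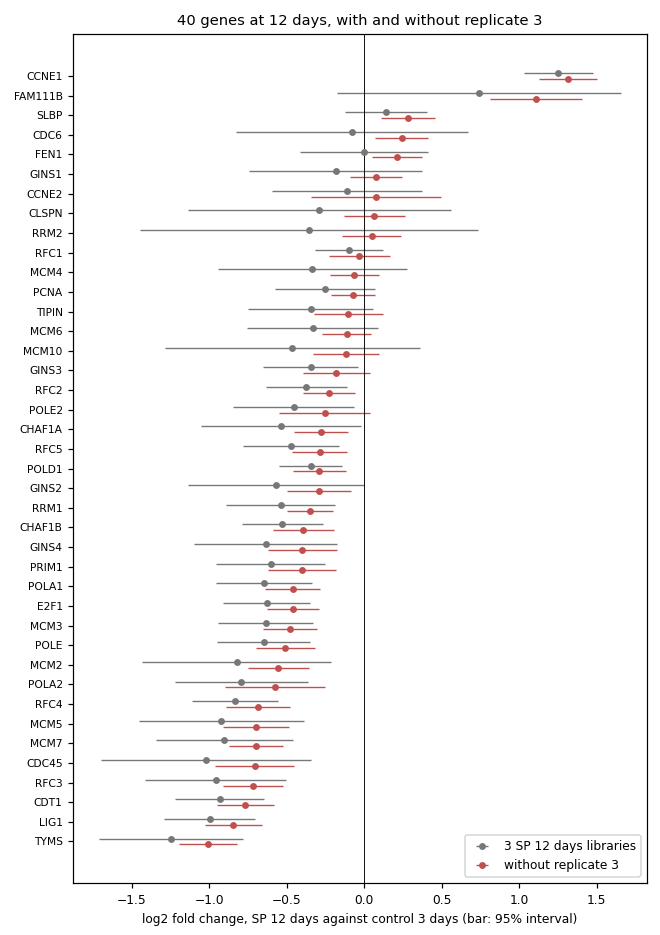
Log2 fold change of each of the 40 genes at SP 12 days against the 3 days control, with its 95% interval, using all 3 SP libraries (grey) or without replicate 3 (red). Every red point lies to the right of its grey point and the red intervals are shorter, for example RRM2 (−0.35 and 0.05) and CCNE1 (1.25 and 1.31).

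Within the SP time courses few members changed. From 3 h to 24 h, CDT1 rose (0.51, edgeR adjusted p = 0.0488) and TYMS and SLBP fell (−0.75 and −0.41, adjusted p = 0.00874 and 0.0479), where 11.7% of all genes rose and 8.40% fell. From 3 to 12 days, CDT1 and POLD1 fell (−0.51 and −0.34, adjusted p = 0.0316 and 0.0405) and none rose, where 4.46% of all genes rose and 3.65% fell. The calls of CDT1 and SLBP from 3 h to 24 h were lost without any 1 of the SP 3 h or SP 24 h libraries, and that of CDT1 also without control R2 (CDT1 0.41 to 0.60, SLBP −0.46 to −0.32, adjusted p up to 0.16 and 0.172). Those from 3 to 12 days were lost without SP 12 days R1, any SP 3 days library or control R1, and for CDT1 control R2 (CDT1 −0.57 to −0.49, POLD1 −0.39 to −0.32, adjusted p up to 0.10 and 0.129). At an unadjusted p under 0.05, 0 members rose and 3 fell from 3 to 12 days, a threshold at which all genes were not counted. Without SP 12 days R3, 7 members rose from 3 to 12 days and 2 fell, where 13.6% of all genes rose and 14.5% fell. Those 7 were RRM2 (0.51), FAM111B (0.48), TIPIN (0.36), MCM4 (0.31), TYMS (0.28), CCNE1 (0.27) and PCNA (0.21), and CDT1 and POLD1 still fell (−0.35 and −0.28).

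In the first day few members were called without a replicate block. At 3 h 2 of 40 members rose and 1 fell, where 7.39% of all genes rose and 4.11% fell. At 24 h 0 rose and 4 fell, where 16.8% rose and 12.0% fell. At an unadjusted p under 0.05, 1 member rose and 11 fell at 24 h. The share of all genes at that threshold was not counted, so these 2 counts have no background beside them. The stricter thresholds called 0% of all genes at 3 h and 0.685% at 24 h, and no member. Same-numbered libraries of the 24 h control and SP 24 h deviated together for replicates 1 and 3 (correlations of 0.50 and 0.50). For replicate 2 the correlation was 0.17, and the labels state no pairing. With the replicate number as a block in a fit of these 2 groups, 14 members fell and 0 rose, where 18.2% of all genes fell and 20.1% rose. The share of members that fell was thus under the background at 24 h without the block and above it with it. With the block, TYMS (−1.11), GINS3 (−0.58), GINS2 (−0.56), POLE2 (−0.53) and RRM2 (−0.52) fell most. CDC45, RFC3, CLSPN, LIG1, PCNA, RRM1, POLA1, MCM7 and FEN1 fell by −0.31 to −0.44. SP 24 h R2 was the lowest of its group in 37 of 40 members and in 33.5% of all genes tested. Without SP 24 h R2, or without SP 24 h R3, 1 member fell. Without control R3, 10 members fell and 3 rose, and without control R1, 2 fell. Of all genes, 924 fell without SP 24 h R2, 1083 without SP 24 h R3, 3093 without control R3 and 1476 without control R1. With all libraries 2087 fell.

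Other genes of replication were taken from lists of general knowledge, made with earlier results of these data known. They are set beside the 23.3% and 23.4% of all genes that fell at 3 and 12 days. For counts without SP 12 days R3 the shares of all genes that fell were 29.0% and 27.6%. Of 19 further genes listed under origins, 10 fell at 3 days and 13 at 12 days, and 0 rose. Among them were MCM9, which is not part of the MCM2 to MCM7 ring (−1.002 and −1.085), and DBF4B, an activator of the CDC7 kinase (−0.942 and −1.303). ORC3, of the origin recognition complex, was another (−0.84 and −0.84). The counts were 15 and 11 without SP 12 days R3. Of 18 further fork genes, 8 and 9 fell, with TIMELESS, the partner of TIPIN (−0.90 and −1.15), POLE4 (−0.81 and −0.82) and the nuclease DNA2 (−0.57 and −0.82). Without R3, 9 and 8 of them fell. Of 12 further nucleotide genes 4 and 7 fell, with DTYMK, which acts after TYMS (−0.78 and −0.85), and SHMT1 at 12 days (−0.51). Without R3, 7 and 8 of them fell. In the same list 1 and 2 rose, with SAMHD1, which degrades deoxynucleotides, at 0.89 and 0.86. Of 19 further genes transcribed in S phase, 8 fell at each time, such as USP1 (−0.72 and −0.68) and FBXO5 (−0.95 and −0.96), with NASP at 12 days (−0.38), and without R3 the counts were 13 and 9. The 12 days values of the genes named here, taken without R3, ran from −1.21 for MCM9 to −0.31 for NASP, with SAMHD1 at 0.87.

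The regulators of the G1/S step moved in both directions. CDKN1A, which encodes the CDK inhibitor p21, held 130.3, 118 and 136 CPM in the 3 days controls, 242, 256 and 247 at SP 3 days, and 607, 586 and 446 at SP 12 days. The groups did not overlap. The rise was 1.94-fold at 3 days (log2 0.96, edgeR adjusted p = 2.25e-06) and 4.27-fold at 12 days (log2 2.09, adjusted p = 5.65e-10), or 2.20 without SP 12 days R3. At 3 h it was also higher, with 112, 135 and 129 CPM against 75.8, 85.3 and 88.1 (log2 0.60, adjusted p = 0.0144), and at 24 h it held 99.9, 86.6 and 112 CPM (0.26, adjusted p = 0.142). Of all genes, 25.2% rose and 23.3% fell at 3 days, and 26.4% rose and 23.4% fell at 12 days. Of 5 tested CDK inhibitor genes, 3 rose and 1 fell at both late times. CDKN1C rose with them (2.005 and 1.19), and CDKN2C fell (−0.65 and −1.36), with 0.92 and −1.35 at 12 days without R3. CDKN1B did not pass with all libraries (0.29 and 0.07, adjusted p = 0.289 and 0.798), with 109 CPM in SP 12 days R3 against 69.5 and 58.1 in R1 and R2. Without R3 it was higher at 3 days (0.29, adjusted p = 0.00787) and lower at 12 days (−0.26, adjusted p = 0.0349).

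CCND1, cyclin D1, which starts RB phosphorylation, held 204, 205 and 197 CPM in controls, 289.5, 287 and 262 at SP 3 days, and 454, 487 and 343 at SP 12 days. Every SP library was above every control (0.47 and 1.08, edgeR adjusted p = 0.00201 and 7.03e-07, and 1.20 at 12 days without R3). MYC held 72.4, 70.9 and 80.0 CPM in controls, 106, 110 and 99.1 at SP 3 days, and 123, 134 and 99.7 at SP 12 days. It was higher in all SP libraries (0.50 and 0.67, adjusted p = 7.50e-04 and 4.55e-05, and 0.77 at 12 days without R3). CDK6, a partner of cyclin D, rose as well (0.66 and 0.85, and 0.94 at 12 days without R3). Of the 22 regulators tested, 4 rose and 7 fell at 3 days, and 4 rose and 4 fell at 12 days. These counts stand beside 25.2% higher and 23.3% lower of all genes at 3 days, and 26.4% and 23.4% at 12 days. In the 24 h experiment CCND1 held 570, 425 and 609 CPM in controls, 478, 415 and 395 at SP 3 h, and 485, 395 and 454 at SP 24 h, with no passed difference, and MYC passed at neither time.

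Genes of G2 and mitosis, which peak after S phase, were set beside the members. Of 15 such genes, 7 fell at 3 days and 10 at 12 days, and 0 rose, where 23.3% and 23.4% of all genes fell. PLK1, a mitotic kinase, fell by 1.24 and 1.51 on the log2 scale, FOXM1, which transcribes the group, by 1.22 and 1.29, and CENPF, of the kinetochore, by 0.85 and 1.13. The 3 days call of CENPF was lost without control R2 (−0.76, edgeR adjusted p = 0.0549). Without SP 12 days R3, 13 of 15 fell at each time, where 29.0% and 27.6% of all genes fell. PLK1, FOXM1 and CENPF were then at −1.21, −1.005 and −0.89 at 12 days. MKI67 held 307, 320.4 and 330.0 CPM in controls, 220.4, 189 and 229.8 at SP 3 days, and 187, 243 and 78.6 at SP 12 days. All SP libraries were lower than all controls, but with all libraries the differences did not pass (−0.58 and −0.91, edgeR adjusted p = 0.214 and 0.067). Without R3 both did (−0.59 and −0.59, adjusted p = 1.07e-06 and 7.63e-06). In the first day, 2 of the 19 further genes listed under origins fell at 3 h and 4 at 24 h. At 24 h, 5 of the 12 further nucleotide genes and 6 of the 18 further fork genes fell. Of the genes of G2 and mitosis, 3 and 7 fell, and of the CDK inhibitor genes 3 rose at 3 h and 1 at 24 h, with 1 lower at each, where 4.11% of all genes fell and 7.39% rose at 3 h, and 12.0% fell and 16.8% rose at 24 h. MCM9 fell at 3 h and 24 h (−0.74 and −1.39, edgeR adjusted p = 0.00592 and 1.22e-04), as did CDKN2C (−0.55 and −0.78). POLE4 and DTYMK fell at 24 h (−1.14 and −0.93), and SAMHD1 rose (0.62). CDKN1C rose at both times (1.67 and 2.20), and PLK1 fell at both (−0.69 and −0.59). In the 24 h experiment MKI67 overlapped its controls, which held 502, 589 and 615 CPM, with 616, 506 and 440 at SP 3 h and 648, 575 and 474 at SP 24 h.

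The 19 members with an E2F word in the promoter had a median log2 fold change of −0.41 at 3 days and −0.64 at 12 days, and the 16 without one −0.33 and −0.42. Of the 19, 10 fell at 3 days and 12 at 12 days. Of the 16, 2 and 8 fell. The medians without SP 12 days R3 were −0.42 and −0.46 with a word and −0.34 and −0.25 without one, with 15 and 12 of the 19 and 11 and 9 of the 16 lower. Of all genes tested, 23.3% and 23.4% fell with all libraries, and 29.0% and 27.6% without R3. At 24 h the medians were −0.32 and −0.12. These are descriptions with no test, since the members share libraries and machinery.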

How the data were processed

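Raw counts of reads per Ensembl gene were deposited by the authors in 2 tables of 9 libraries each, without normalization. Per the labels and the methods of the study, libraries were made with the NEBNext Ultra kit, read as paired ends, aligned to GRCh38 with STAR 2.7.9a and counted with featureCounts. Whether counting used strand, and how it treated multimapping reads, is not given in the sources used here.

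The analysis used edgeR 4.0.16 under R 4.3.3. Genes that passed filterByExpr at a minimum count of 10 were scaled by TMM factors of 0.957 to 1.037, and were fitted per table in 1 robust quasi-likelihood model of 9 libraries with a term for group, which was tested on simulated data. Adjustment was by Benjamini-Hochberg, across every gene tested. DESeq2 1.42.0 was an alternative. The authors' study used DESeq2 1.36.0. Log2 CPM used a prior count of 2, and TPM the union of exons of GENCODE, which named 61369 of 61541 genes.

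The members and gene lists were chosen with earlier results of these data known. Values per library are given for up to 4 of the largest rises and falls among passed members of each comparison, with PCNA, MCM2, CCNE1, CCNE2 and E2F1, and other lists by up to 3 genes of smallest adjusted p, with CDKN1A, CDKN1B, CCND1, MYC and MKI67. Libraries shown for CDT1 and FAM111B, and genes named only with a fold change, were chosen after their values were seen.

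Replicate numbers were checked for pairing. Residuals of same-numbered libraries of SP 24 h and its control correlated at 0.50, 0.17 and 0.50. Those of libraries with different numbers correlated at −0.55 to 0.18, so replicate 2 was not set apart as a pair. The labels state no pairing. The fit without a block remained the main one for every comparison, and values with the replicate block in a fit of these 2 groups are given beside results whose call it changed. The other comparisons had at least 1 correlation under 0.1. Alternatives were scaling, filter, 2-group fits, replicate block, GC content and length offsets, thresholds and each library left out. Counts at the stricter thresholds and E2F medians without SP 12 days R3 were added after seeing the data.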

Additional observations from a re-analysis of the deposited data

Results flagged for a closer look

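The change between times under SP differed for 4 members, by the edgeR test of that difference with adjustment over all genes. CDT1 was 0.51 higher on the log2 scale at 24 h than at 3 h, TYMS differed by −0.75 and SLBP by −0.41. CDT1 differed by −0.51 and POLD1 by −0.34 between 12 and 3 days. The TYMS difference passed under 18 of 18 alternatives, with −0.90 to −0.61. CDT1 between 3 h and 24 h passed under 8 of 18 (0.15 to 0.60), SLBP under 10 of 18, and CDT1 and POLD1 between 3 and 12 days under 8 of 18 each. Leaving out SP 12 days R3 kept both late differences. The causes were not tested.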

How the results depend on the processing

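Counts of members (higher, lower) are compared with the values in the report, and where one moved the cause was not tested unless fewer samples or stricter limits made it. Leaving out SP 12 days R3, an alternative chosen after seeing the data, moved the counts at the stricter thresholds to 1 gene higher and 1 gene lower (3 days) and to 2 genes higher and 1 gene lower (12 days). With all libraries these thresholds gave 0 higher at 3 h and between 3 h and 24 h, and 0 lower in every comparison. At 3 h, 0 were higher with only the 2 groups or with the replicate block in 2 groups, and 0, 2 and 5 were lower with that block, with GC and length offsets, and with offsets and block. With the block in 2 groups 0 of all genes were called in either direction, so these counts of 0 say nothing about the members. Of all genes, 714 were lower at 3 h in the main fit, 1084 with offsets and 1292 with offsets and block. With only the 2 groups 624 were higher, against 1285 in the main fit. At 24 h the lower count was 8 with offsets, 11 with offsets and block (1 higher) and 14 with the replicate block in 2 groups. Of all genes, 2615, 2875 and 3108 fell in those fits, against 2087 in the main one. From 3 h to 24 h, 2 were higher with DESeq2, library totals, only the 2 groups, the block in 2 groups, or offsets and block. There, 1 was lower with RLE factors or no filter, 4 with offsets or only the 2 groups, 5 with either replicate block, and 8 with offsets and block. Of all genes, 1459 fell there in the main fit, 1383 with RLE factors and 1218 with no filter. With offsets 2081 fell, with only the 2 groups 2011, with the blocks 1513 and 1624, and with offsets and block 2460. In the fits with 2 members higher, 2020 to 2648 of all genes rose, against 2038 in the main fit. At 3 days, 2 were higher with offsets and with offsets and block, and 3 higher and 29 lower with only the 2 groups, with or without the block. Of all genes, 4978 fell at 3 days with only the 2 groups and 5427 with the block there, against 4147 in the main fit. From 3 to 12 days, 1 was lower with offsets and with offsets and block, and 0 with only the 2 groups, with or without the block. Of all genes, 699 and 679 fell there with offsets and with offsets and block. With only the 2 groups 402 fell, and 358 with the block there, against 648 in the main fit. Same numbers were not pairs by the check in the other comparisons, and for SP 24 h against its control the check did not set replicate 2 apart.

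Leaving out 1 library gave ranges of 0 to 2 higher and 1 to 1 lower at 3 h, 0 to 3 and 1 to 10 at 24 h, 0 to 1 and 1 to 3 from 3 h to 24 h, 1 to 3 and 6 to 29 at 3 days, 1 to 5 and 16 to 28 at 12 days, and 0 to 7 and 0 to 5 from 3 to 12 days. At 3 days, 6 were lower without control R3 and 29 without SP 12 days R3, where 3738 and 5242 of all genes fell. At 12 days, 16 were lower without control R3 and 28 without SP 12 days R2, where 3701 and 4182 of all genes fell. From 3 to 12 days 7 were higher without SP 12 days R3 and 5 lower without SP 12 days R2, where 2456 of all genes rose and 428 fell. At 24 h, 10 were lower without control R3 and 1 without SP 24 h R2 or R3.

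Over all 40 members, 109 of 2880 alternative values in the comparisons with control changed sign, and no main value among them had passed. After the change 2 passed, CDC6 (0.24) and FEN1 (0.21) at 12 days without SP 12 days R3. Of the genes named by rule, RFC3 was 0.008 at 3 h without control R1, in a range from −0.320 to 0.008 over libraries left out, and 0.047 at 24 h with offsets, with or without the block. MCM2 at 24 h was −0.22 with offsets, −0.22 with offsets and block, −0.012 without control R2 and −0.013 without SP 24 h R1 (range −0.013 to 0.188). CCNE2 at 3 h was −0.123 without control R3 (range −0.123 to 0.656). At 12 days SLBP was −0.002 without SP 12 days R2 (range −0.002 to 0.281), and without SP 12 days R3 RRM2 was 0.048 (range −0.814 to 0.048), CCNE2 0.076 (−0.318 to 0.076) and CDKN1B −0.257 (−0.257 to 0.238). CCNE1, TYMS, LIG1, RFC3 and MCM7 passed at 3 and 12 days under 18 of 18 alternatives each.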

Other observations

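CCND2, cyclin D2, was not covered by the rules above and is named after its values were seen. It had 0 reads in the 3 libraries of both control groups. SP 3 days libraries held 50, 29 and 32 reads and SP 12 days libraries 102, 107 and 344, with the highest value in replicate 3. Against a floor of 3 reads over the control group, CCND2 was at least 40.2-fold higher at 3 days and at least 170-fold higher at 12 days. SP 3 h libraries held 1, 10 and 5 reads and SP 24 h libraries 4, 9 and 8, at least 5.09-fold and 4.69-fold higher against the same floor. CCND2 and CCND1 were both higher at the late times. CCNA2, the cyclin of S phase and also named after its values were seen, was lower (−1.14 and −1.29, edgeR adjusted p = 0.00892 and 0.00465, and −0.99 at 12 days without SP 12 days R3).

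In the 24 h experiment the 3 controls differed among themselves in FAM111B, with 58.4, 48.8 and 9.92 CPM, and SP 3 h and SP 24 h libraries with 32.0, 19.9 and 61.9 and 44.4, 14.6 and 13.5. The members summed to 4666 to 5565 CPM in the 24 h controls and 2575 to 2848 in the 3 days controls, values from separately scaled experiments, which were not compared.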
